A study of Mus musculus with 16 samples.

Results

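The genes Pctp, Tacc1, Tuft1, Tor3a, Ints10, Csf2rb, Prdx3 and Gm6166 were followed across 4 cell types of the mouse liver. These 8 of 47729 genes were chosen by their counts in hepatocytes, as genes that differed most clearly between libraries labelled knock-out (KO) and libraries labelled wild type (WT). Their hepatocyte values are therefore given as a description, with no test. The question taken up here is what these genes did in the other 3 cell types, in which they had not been selected. The 8 genes were found by symbol, belong to no common pathway and were picked with no stated numerical threshold.

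RNA came from unchallenged livers of adult mice, separated into endothelial cells (EC), hepatic stellate cells (HSC), Kupffer cells (KC) and hepatocytes (HEP), with 2 libraries for each cell type and label (n = 2 per group, 16 libraries in all). Mice labelled KO carried Zeb2 with a loxP-flanked exon 7, an eGFP reporter and the tamoxifen-inducible, endothelial Cre driver Cdh5-CreERT2. WT mice were their littermates without Cre, and both received 2 mg of tamoxifen a day for 5 days. The study used males of 8 weeks and measured mRNA 2 weeks after tamoxifen. Hepatocytes were separated from the other cells by centrifugation, whereas HSC were sorted by their ultraviolet autofluorescence, KC by F4/80 and EC by a pan-endothelial antibody. Cre is thus driven in endothelium, whereas the genes were chosen in hepatocytes, which the driver does not target. Nothing in the labels says whether replicates of a group came from separate animals, so that the spread between them may be partly technical.

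Levels are given as CPM, the count of a gene scaled to the reads on all genes of the library. The libraries held 12872706 to 15690506 reads on genes, at which 3 counts, taken here as the smallest reliable value, equal 0.191 to 0.233 CPM. Summed markers of each cell type were highest in the libraries of that cell type, and the 10 hepatocyte markers summed to 106399 to 120602 CPM in HEP. Whole-gene counts of the targeted gene, Zeb2, were not lower with the KO label. They stood at 106 and 106 CPM in EC labelled WT and at 199 and 130 CPM in EC labelled KO. The log2 fold change was 0.62 ± 0.24 (SE), with an adjusted p of 0.303 by edgeR's quasi-likelihood test with Benjamini-Hochberg adjustment over all genes tested. These counts cover the whole gene, whereas the deletion concerns exon 7. The study itself reports an efficient loss of Zeb2 in endothelium, both in mRNA and in the share of EC affected. Groups are called by their labels throughout.

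The members belong to unrelated parts of cell biology. Pctp encodes the phosphatidylcholine transfer protein, a START domain protein abundant in liver that moves phosphatidylcholine between membranes, and Prdx3 encodes the mitochondrial peroxiredoxin, which reduces hydrogen peroxide with electrons from mitochondrial thioredoxin. Csf2rb encodes the beta chain shared by the receptors for GM-CSF, interleukin 3 and interleukin 5, which is typical of myeloid cells. Tor3a encodes a torsin, an AAA ATPase of the endoplasmic reticulum, Ints10 a subunit of the Integrator complex that processes small nuclear RNAs and attenuates transcription, and Tacc1 a coiled-coil protein that binds microtubule-associated partners. Tuft1 encodes tuftelin, first described in developing tooth enamel, and Gm6166 is annotated as a processed pseudogene, a copy of an mRNA inserted into the genome.

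Gm6166 lies in 1 exon on chromosome 9 (GRCm38, chr9:57483963-57484371, plus strand). Of all other annotated transcripts, those of Fabp5, which encodes the epidermal fatty acid binding protein, shared most sequence with it, with 300 of its 389 words of 21 bases. Both sequences are shown because the counts of Gm6166 depend on the few bases at which they differ. The stretch from position 181 to the end, which is position 408 of the Fabp5 coding sequence and position 409 of Gm6166 (GENCODE M21, GRCm38), is given 5′ to 3′. Capitals mark each base that differs or has no partner in the alignment.
Fabp5: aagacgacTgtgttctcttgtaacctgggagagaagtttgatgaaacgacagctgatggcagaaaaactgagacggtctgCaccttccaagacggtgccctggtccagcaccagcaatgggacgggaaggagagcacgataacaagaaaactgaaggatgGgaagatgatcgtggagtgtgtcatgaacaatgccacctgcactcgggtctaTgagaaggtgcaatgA
Gm6166: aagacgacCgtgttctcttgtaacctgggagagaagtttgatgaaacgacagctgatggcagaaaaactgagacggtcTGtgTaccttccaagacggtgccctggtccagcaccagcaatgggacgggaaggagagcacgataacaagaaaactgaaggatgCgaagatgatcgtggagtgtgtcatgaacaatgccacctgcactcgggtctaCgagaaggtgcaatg
The alignment of both whole sequences held 407 positions, of which 402 (98.8%) were identical, with 2 further bases found in Gm6166 alone. The 5 substitutions were T9C, T189C, C261T, G341C and T393C, with the Fabp5 base first and positions counted from 1 at the A of the Fabp5 start codon. The longest identical run was 179 bases. Of the 50-base windows of Gm6166, 51.1% also occurred in Fabp5, so that reads from those windows cannot be assigned to either gene. Gm6166 also overlaps another annotated pseudogene, Gm18103, on the same strand. Its counts are therefore uncertain in every library.

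In hepatocytes, 5 members stood lower in both libraries labelled KO than in both labelled WT, as did 20.9% of all genes tested, and 3 stood higher, as did 19.9%. The 4 HEP libraries are named by the numbers in their labels, 29 and 33 for WT and 25 and 41 for KO. In the fit over all 11548 genes tested in HEP, the members held ranks 1, 4 to 8, 12 and 13 by the test statistic. The 5 genes ranked between them that are not members were Alas2 (log2 fold change -3.23), Mup16 (-1.84), Hsph1 (-1.59), Ehhadh (-1.51) and Mrpl48-ps (7.82).

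Pctp (chr11:89982665-90002894, minus strand) ranked first and measured 52.6 and 54.1 CPM in libraries 29 and 33 and 3.55 and 5.93 CPM in libraries 25 and 41. Both WT libraries were high and close together, and both KO libraries were low, with 11.3 times as much in WT by the group means. The log2 fold change was -3.42 ± 0.33 (SE).

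Csf2rb (chr15:78325752-78353847, plus strand) measured 11.1 and 13.8 CPM in WT and 2.64 and 2.02 CPM in KO, a log2 fold change of -2.36 ± 0.37. Tor3a (chr1:156653617-156674356, minus strand) measured 16.9 and 23.9 CPM in WT and 5.16 and 5.19 CPM in KO (-1.92 ± 0.32). Both genes were several-fold lower in each KO library than in either WT library.

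Ints10 (chr8:68793929-68831667, plus strand) measured 11.3 and 12.6 CPM in WT and 3.67 and 3.23 CPM in KO (-1.73 ± 0.33). Tacc1 (chr8:25154552-25256588, minus strand) measured 38.6 and 38.3 CPM in WT and 15.3 and 12.5 CPM in KO (-1.41 ± 0.20). Replicates of Ints10 and Tacc1 lay close together in both groups, and the groups did not overlap.

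Of the 3 members that stood higher with the KO label, Tuft1 (chr3:94612757-94658872, minus strand) measured 5.86 and 3.34 CPM in WT and 18.3 and 22.9 CPM in KO, a log2 fold change of 2.24 ± 0.36. Prdx3 (chr19:60864051-60874556, minus strand) measured 101 and 101 CPM in WT and 202 and 240 CPM in KO (1.20 ± 0.22), the smallest change among the 8 genes but at the highest counts. Gm6166 had 0 counts in both WT libraries and 67 and 138 counts in libraries 25 and 41, or 4.32 and 9.30 CPM. The KO mean was 6.81 CPM, whereas the floor of 3 counts equals 0.191 and 0.205 CPM in WT libraries 29 and 33.

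**Figure D1:**
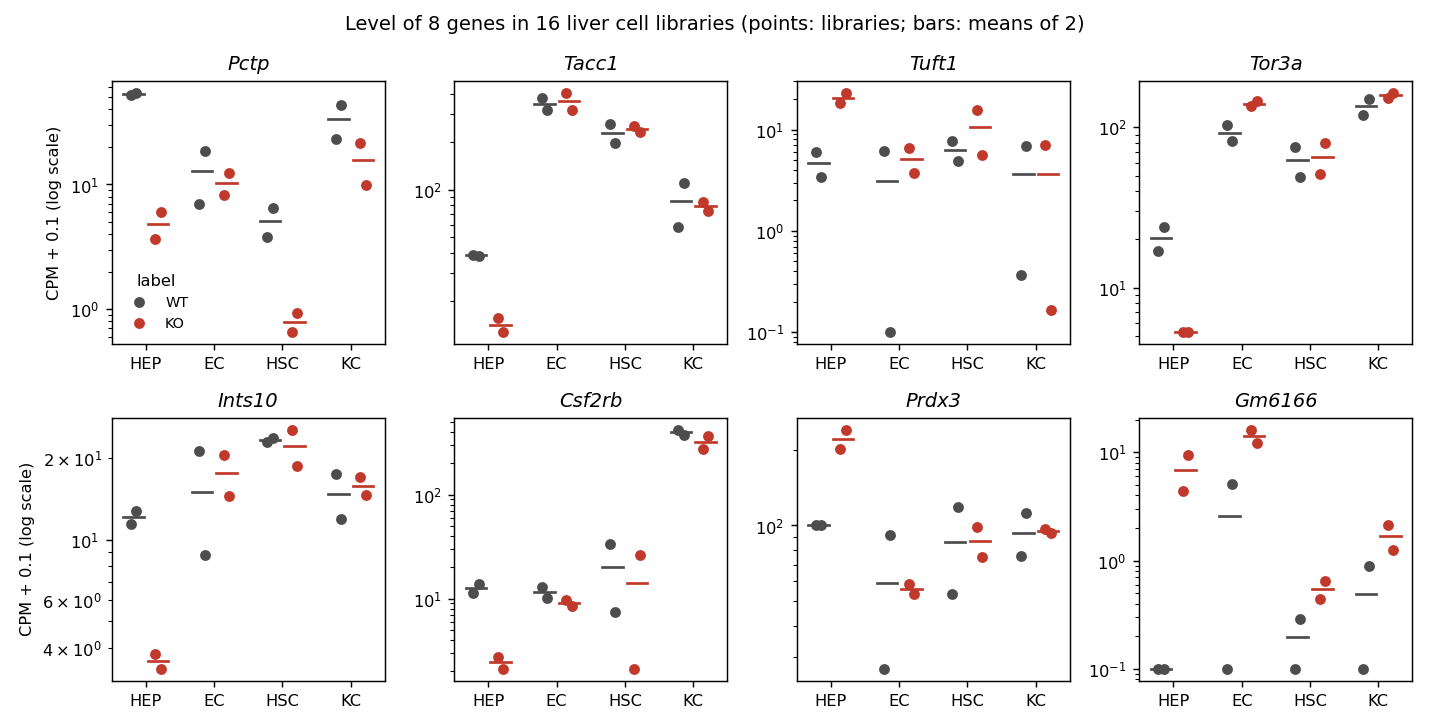
Level of each of the 8 genes in the 16 libraries, as CPM + 0.1 on a log scale, by cell type (HEP, EC, HSC, KC) and label (grey WT, red KO). Points are single libraries and bars are means of 2. The labels separate for all 8 genes in HEP, where they were chosen, and for at most 4 of them in EC, HSC or KC.

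The separation in HEP is fixed by the choice of genes. In the same libraries 40.8% of all genes tested had no overlap between labels, and 0% passed an adjusted p under 0.05 (0 of 11548 genes by edgeR, 821 genes at an unadjusted p under 0.05 and 32 genes at an adjusted p under 0.05 by DESeq2).

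Markers of other cell types were detected at low levels in the hepatocyte libraries. The 10 KC markers summed to 394 and 209 CPM in WT and to 178 and 125 CPM in KO, so they moved in the same direction as Csf2rb. All 10 had more than 3 counts in each HEP library except Cd163 in KO library 41, and they were led by Clec4f at 41.6 to 88.5 CPM. Relative to the mean of the KC libraries labelled WT, Csf2rb in HEP reached 2.79% and 3.47% in WT and 0.666% and 0.509% in KO. The KC markers reached 0.870% and 0.462% in WT and 0.394% and 0.275% in KO. Csf2rb was above the KC markers on this scale in each HEP library, and also in each EC library (2.12% to 3.25% against 0.905% to 2.13%). In HSC it was above them in libraries 32 and 20 and below them in libraries 40 and 8. The part of KC RNA in the Csf2rb result was not tested. In bulk RNA, fewer cells of a type and less RNA per cell cannot be told apart. The 10 EC markers summed to 134 to 152 CPM in WT and 96.7 to 117 CPM in KO, and the 10 HSC markers to 128 to 150 CPM and 76.8 to 123 CPM. The 8 neutrophil markers summed to 2.45 to 4.84 CPM in WT and 4.58 to 11.0 CPM in KO, and monocyte and dendritic cell, B cell, and T and NK cell markers stayed at or under 2.76 CPM. Of the erythroid genes, Alas2, the erythroid enzyme of haem synthesis, stood at 157 and 264 CPM in WT and 25.6 and 17.9 CPM in KO, while Slc4a1 was at 0 in the 4 libraries and Hba-a1 stood at 1.81 to 3.03 CPM. Of the reads in HEP libraries, 41.6% and 47.9% in WT and 38.2% and 46.3% in KO aligned to more than 1 place and were not counted.

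**Figure D2:**
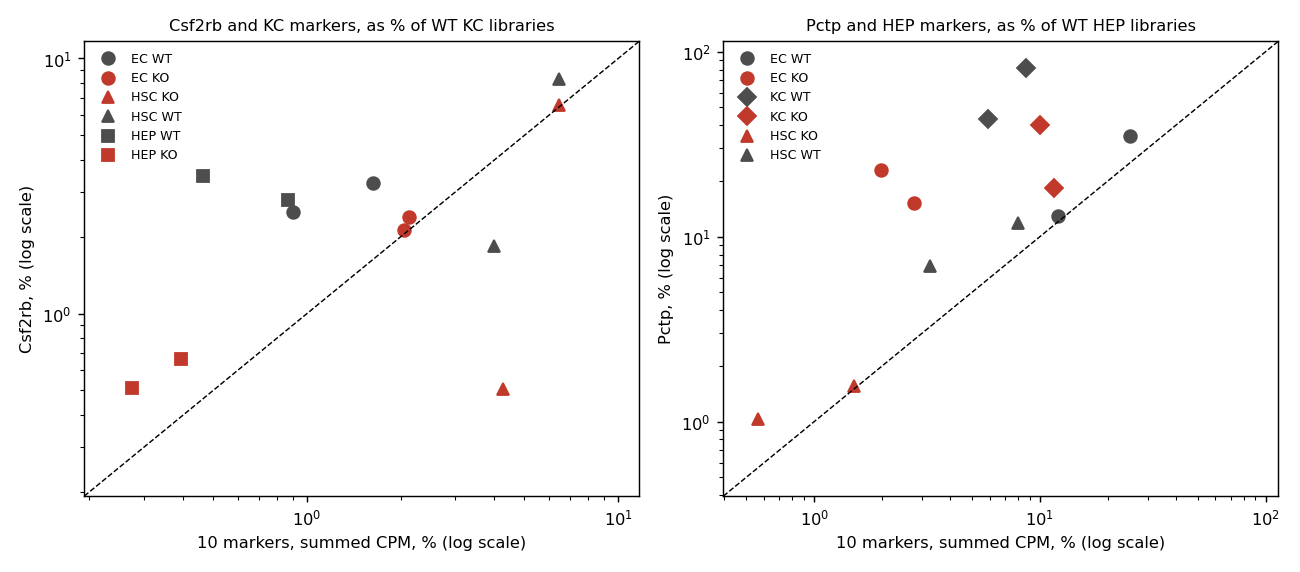
Left, Csf2rb against the summed 10 KC markers in EC, HSC and HEP libraries, each as a percentage of the mean of the WT KC libraries. Right, Pctp against the summed 10 HEP markers in EC, KC and HSC libraries, as a percentage of the mean of the WT HEP libraries. Libraries of both labels are set against WT HEP, where Pctp stood higher than in KO HEP. Axes are logarithmic, shapes give cell type, colours give label (grey WT, red KO), and the dashed line marks equality. On the left the HEP and EC libraries lie above the line and the HSC libraries on both sides of it. On the right the HSC libraries lie close to or above it.

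Outside hepatocytes, no member passed the threshold between labels. The counts were 0 of 8 in EC, where 2.08% of all genes passed, 0 of 7 in HSC and 0 of 8 in KC, where 0% passed (0 genes by edgeR at an adjusted p under 0.05, against 408 in HSC and 72 in KC by DESeq2, none of them members). At an unadjusted p under 0.05, 1259 genes were found in HSC and 706 in KC. DESeq2 called no member in EC either. Counted on TMM-scaled values (a scaling that equalises most genes between libraries), the labels did not overlap for 3 of 8 members in EC, 1 of 7 in HSC and 3 of 8 in KC. The share over all genes tested was 48.5% in EC, 40.5% in HSC and 37.3% in KC, so the members' shares were close to the background or below it. Of these 7 cases, 5 went the same way as in HEP and 2, both of Tor3a, the opposite way.

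**Figure D3:**
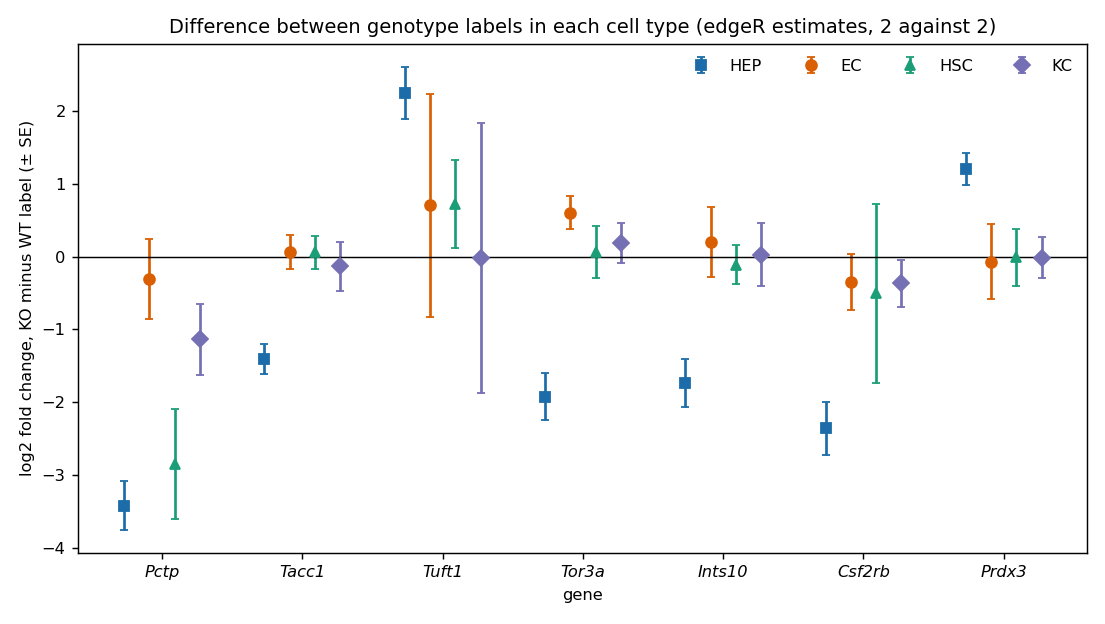
Log2 fold change between labels (KO minus WT) with its SE in each of the 4 cell types for 7 members, from edgeR fits of 2 against 2 libraries within a cell type. Gm6166 is not drawn, since it had 0 counts in both HEP libraries labelled WT. HEP estimates are those on which the genes were chosen. Pctp lies below 0 in the 4 cell types, and Tor3a lies below 0 in HEP and above 0 in EC.

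Pctp and Csf2rb had estimates below 0 in all 4 cell types. In HSC, Pctp measured 3.71 and 6.33 CPM in WT libraries 32 and 40 and 0.553 and 0.830 CPM in KO libraries 8 and 20, with each WT library above both KO libraries. The log2 fold change was -2.85 ± 0.75, with an unadjusted p of 0.0106 and an adjusted p of 0.407 by edgeR. By DESeq2 the adjusted p was 0.0562. The HEP markers in these libraries moved in the same direction, at 3547 and 8721 CPM in WT and 616 and 1644 CPM in KO. Relative to HEP labelled WT, Pctp stood at 6.97% and 11.9% in WT and 1.04% and 1.56% in KO, and the markers at 3.25% and 7.99% in WT and 0.565% and 1.51% in KO. Both labels are set here against HEP labelled WT, whereas Pctp in HEP labelled KO measured only 3.55 and 5.93 CPM. The percentages in KO are therefore not shares of the level in KO hepatocytes. The part of hepatocyte RNA in this difference was not tested.

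In KC, Pctp measured 23.0 and 43.3 CPM in WT and 21.3 and 9.75 CPM in KO, without overlap but with library 31 of WT close to library 27 of KO. The log2 fold change was -1.14 ± 0.49, with an unadjusted p of 0.0564 and an adjusted p of 0.933 by edgeR. Here the HEP markers moved the other way, at 5.90% and 8.71% of the HEP level in WT and 9.96% and 11.5% in KO. In EC, Pctp measured 6.91 and 18.6 CPM in WT and 8.08 and 12.2 CPM in KO. These groups overlapped, with a log2 fold change of -0.30 ± 0.55 that turned positive when WT library 38 was left out (0.54). HEP markers in EC stood at 12.0% and 25.0% in WT and 2.78% and 1.98% in KO.

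The sign of the Tor3a estimate was negative in HEP, where it was chosen, and positive in EC and KC, where it did not pass the threshold. In EC it measured 103 and 82.4 CPM in WT and 136 and 145 CPM in KO, with no overlap and a log2 fold change of 0.60 ± 0.23. The unadjusted p was 0.0362 and the adjusted p 0.295 by edgeR. In KC it measured 120 and 151 CPM in WT and 153 and 164 CPM in KO, separated by a narrow margin (0.18 ± 0.27, adjusted p of 0.972 by edgeR). In HSC the groups overlapped, at 75.2 and 49.2 CPM in WT and 51.1 and 79.5 CPM in KO. No difference between HEP and another cell type was tested, since the HEP contrast chose the genes.

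Csf2rb in KC, where it is most abundant, measured 421 and 374 CPM in WT and 277 and 363 CPM in KO. KO libraries were lower in CPM, but after TMM scaling the groups overlapped, and the log2 fold change was -0.37 ± 0.32 (adjusted p of 0.939 by edgeR). In EC it measured 12.9 and 9.94 CPM in WT and 9.54 and 8.41 CPM in KO, without overlap (-0.35 ± 0.38, adjusted p of 0.728 by edgeR). In HSC replicates differed far more than labels, with 33.1 and 7.29 CPM in WT and 2.00 and 26.1 CPM in KO. Of the 50-base windows of Csf2rb, 12.3% also occur in Csf2rb2, the interleukin 3 specific beta chain next to it on the chromosome. Csf2rb2 stood at 0.127 and 1.23 CPM in HEP labelled WT and at 0.451 and 0.202 CPM in HEP labelled KO.

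The labels overlapped for Tacc1, Tuft1, Ints10 and Prdx3 in each of the other cell types. Tacc1 measured 376 and 316 CPM in EC labelled WT and 406 and 319 CPM in EC labelled KO, with log2 fold changes between -0.13 and 0.06 in EC, HSC and KC and standard errors of 0.23 to 0.34. Prdx3 varied more between replicates than between labels, for instance from 26.9 to 91.6 CPM in EC labelled WT, and its log2 fold changes lay between -0.07 and -0.01. Ints10 measured 8.70 to 21.2 CPM in EC labelled WT and 14.5 to 20.5 CPM in EC labelled KO, and its estimates in the 3 cell types lay between -0.11 and 0.20.

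Tuft1 was the least evenly detected of the protein-coding members. It had 0 counts in EC library 38 of WT and 87 counts in library 34. In KC it had 4 and 105 counts in WT and 106 and 1 counts in KO, so that 1 library of each label was near 0. Its log2 fold changes were 0.70 ± 1.53 in EC, 0.72 ± 0.61 in HSC and -0.02 ± 1.85 in KC, with standard errors in EC and KC that were larger than the estimates. Of its 50-base windows, 7.01% also occur in Gm15264.

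Gm6166 stood higher in both KO libraries than in both WT libraries in EC and KC as well as in HEP, without passing the threshold in EC or KC. It had 0 and 64 counts in EC labelled WT and 230 and 173 counts in EC labelled KO, a log2 fold change of 2.51 ± 1.38 (adjusted p of 0.461 by edgeR). The estimate ran from 1.53 to 10.64 when each EC library was left out in turn. The value of 10.64 came without WT library 38. Without the filter on low counts the estimate was 2.54, little changed, while the adjusted p was 0.000305 by the same test. In KC it had 0 and 12 counts in WT and 31 and 17 counts in KO (2.02 ± 1.74, adjusted p of 0.939 by edgeR), and the estimate ran from 1.07 to 7.52 (without WT library 39) when each KC library was left out. In HSC it did not pass the filter on low counts, with 0 and 3 counts in WT and 5 and 8 counts in KO.

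Gm6166 was also set beside its parent gene in each library. Fabp5 itself ranged from 1.24 CPM in HSC to 110 CPM in EC. Per 1000 Fabp5 counts, the KO libraries of EC, HSC and KC held 109 to 278 Gm6166 counts. In HEP, whose counts chose the gene, the values were 223 and 302 in KO and 0 in both WT libraries. The HSC values rest on few Gm6166 counts, with 0 and 3 in WT and 8 and 5 in KO. Of the 8 libraries labelled WT, 5 held 0, with 35 Fabp5 counts in HSC library 32 and 988 in EC library 34. The other 3 held 90.9 to 128.8. Those 3 were libraries 38, 39 and 40, which come from EC, KC and HSC, and the 5 at 0 were libraries 29, 31, 32, 33 and 34. The labels do not say whether neighbouring numbers mark the same liver. KO library 46 of EC, at 109, lay inside the range of the 3 WT libraries above 0. In HEP, Fabp5 measured 13.7 and 18.1 CPM in WT and 19.3 and 30.8 CPM in KO (0.73 ± 0.34, adjusted p of 0.708 by edgeR), a smaller difference than that of Gm6166.

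**Figure D4:**
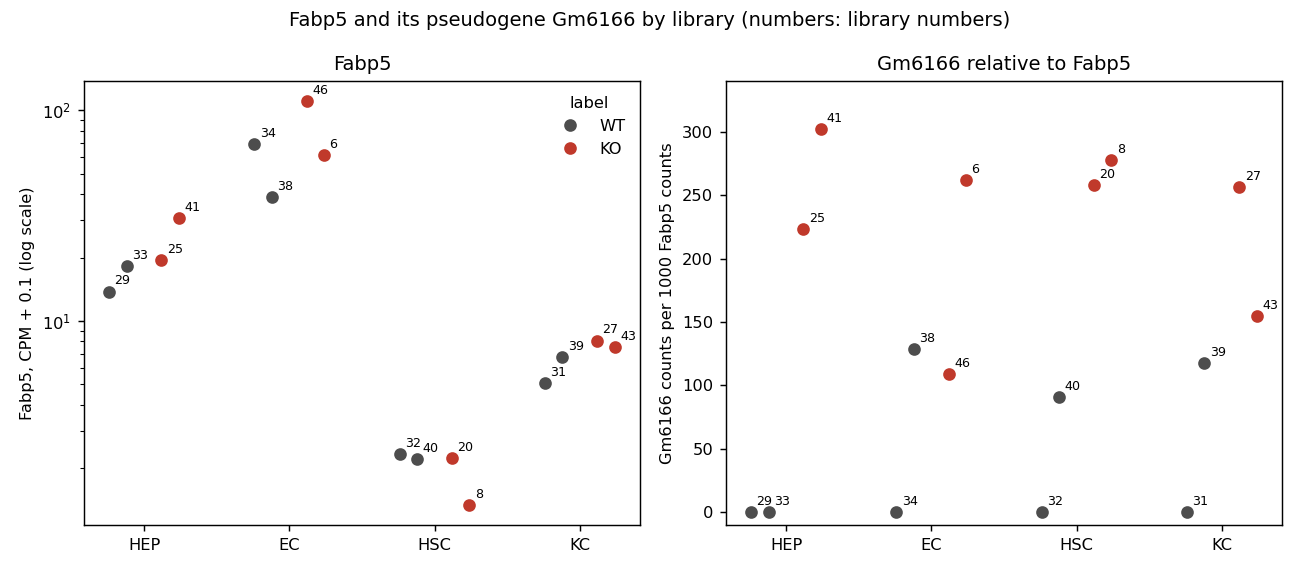
Left, Fabp5 as CPM + 0.1 on a log scale, and right, Gm6166 counts per 1000 Fabp5 counts, in each of the 16 libraries by cell type, with the library number beside each point (grey WT, red KO). On the right the 8 KO libraries lie at 109 or above, 5 WT libraries lie at 0, and WT libraries 38, 39 and 40 lie at 90.9 to 128.8. These include the HEP libraries, whose counts chose the gene.

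The 8 genes differed in the cell type in which they stood highest. EC, HSC and KC were compared in a fit over the 16 libraries, with each cell type averaged over both labels. Of the 8 members, 2 passed the threshold for EC against HSC (26.0% of the 17214 genes tested), 5 for EC against KC (32.0%) and 4 for HSC against KC (42.9%). The 2 for EC against HSC were Pctp and Gm6166, and Gm6166 did not pass the filter on low counts in HSC alone. Levels in HEP are given without a test, since those libraries chose the genes and their mean over labels holds part of the difference on which they were chosen. Scaling also matters for any comparison with HEP, because TMM factors were 0.497 to 0.588 in HEP and 1.01 to 1.47 elsewhere. With library totals in place of TMM, contrasts against HEP move in favour of EC by 1.37, of HSC by 1.13 and of KC by 1.06 on the log2 scale.

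Tor3a stood at 147 ± 19.1 CPM (SD, n = 4) in KC, 117 ± 29.2 CPM in EC, 63.7 ± 15.8 CPM in HSC and 12.8 ± 9.26 CPM in HEP. KC exceeded HSC, with a log2 fold change for HSC against KC of -1.26 ± 0.23 (adjusted p of 0.000875 by edgeR). KC exceeded EC by 0.67 ± 0.22 (adjusted p of 0.0396 by edgeR), a call lost with library totals (adjusted p of 0.200), in WT libraries alone (0.116) and without any 1 of 9 libraries (up to 0.128). EC against HSC missed the threshold (0.59 ± 0.22, adjusted p of 0.0712 by edgeR) but passed it with library totals (0.00968) and without HSC KO library 20 (0.0433).

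Tacc1 stood at 354 ± 44.6 CPM in EC, 235 ± 27.0 CPM in HSC, 81.6 ± 22.1 CPM in KC and 26.2 ± 14.2 CPM in HEP. HSC exceeded KC by 1.47 ± 0.19 (adjusted p of 8.41e-05 by edgeR), and EC against HSC missed the threshold (0.35 ± 0.19, adjusted p of 0.200).

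Csf2rb stood at 358 ± 59.9 CPM in KC, 17.1 ± 14.8 CPM in HSC, 10.2 ± 1.92 CPM in EC and 7.38 ± 5.94 CPM in HEP. KC exceeded HSC by 4.45 ± 0.68 (adjusted p of 0.000266 by edgeR). EC against HSC missed the threshold (-1.004 ± 0.607, adjusted p of 0.254 by edgeR) but passed it without the filter on low counts (-1.06, adjusted p of 0.00101) and without HSC KO library 8 (-1.52, adjusted p of 0.0239). Without HSC KO library 20 its sign turned (0.42).

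Prdx3 stood at 161 ± 71.0 CPM in HEP, 94.2 ± 14.9 CPM in KC, 86.2 ± 28.4 CPM in HSC and 57.6 ± 26.6 CPM in EC. KC exceeded EC by 1.03 ± 0.33 (adjusted p of 0.0325 by edgeR), a call lost with library totals (0.132), in WT libraries alone (0.2499) and without any 1 of 5 libraries (0.0551 to 0.0693). KC and HSC did not differ beyond their spread (adjusted p of 0.666 by edgeR). EC against HSC missed the threshold (-0.83 ± 0.33, adjusted p of 0.0833 by edgeR) but passed it without the filter on low counts (0.00716), without EC WT library 38 (0.00467) and without HSC WT library 32 (0.0312).

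Pctp stood at 29.0 ± 28.1 CPM in HEP, 24.3 ± 14.0 CPM in KC, 11.4 ± 5.27 CPM in EC and 2.86 ± 2.72 CPM in HSC. KC exceeded EC by 1.30 ± 0.38 (adjusted p of 0.0207 by edgeR), a call lost with library totals (0.0665) and without any 1 of 4 libraries (0.0573 to 0.0701). EC exceeded HSC by 2.35 ± 0.42 (adjusted p of 0.00132 by edgeR), a call lost in WT libraries alone (0.221). Against HEP labelled WT, the 10 HEP markers stood in EC at 12.0% and 25.0% in WT and 2.78% and 1.98% in KO. In HSC they stood at 3.25% and 7.99% in WT and 0.565% and 1.51% in KO. The part of hepatocyte RNA in this call was not tested.

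Gm6166 averaged 8.25 CPM in EC, 3.40 CPM in HEP, 0.994 CPM in KC and 0.273 CPM in HSC. EC exceeded HSC by 4.48 ± 1.33 (adjusted p of 0.0289 by edgeR), a call lost in WT libraries alone (0.355). It was also lost without any 1 of the 4 HSC libraries or any 1 of EC libraries 38, 6 and 46. The estimate was 0.58 without EC WT library 38. With 0 to 8 counts in HSC, Gm6166 entered this fit only through its counts in other cell types. The call is therefore given as a description. EC against KC missed the threshold (2.58 ± 1.18, adjusted p of 0.120 by edgeR) but passed it without the filter on low counts (0.00290) and without EC WT library 34 (0.0386).

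Tuft1 averaged 3.54 to 12.6 CPM and Ints10 7.72 to 22.6 CPM over the cell types, and neither passed the threshold between EC, HSC and KC. Without the filter on low counts, Tuft1 passed for EC against HSC (-1.28, adjusted p of 0.0361 by edgeR) and HSC against KC (1.17, adjusted p of 0.0465). Ints10 passed for EC against HSC without EC WT library 34 (-1.21, adjusted p of 0.0118 by edgeR).

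Across the 16 libraries, the genes most like each member were named by Pearson correlation of log2 CPM, as a description. The 16 points fall into 4 clusters, since libraries of a cell type share most of their expression. Csf2rb was closest to Spic, which encodes a transcription factor of iron-recycling macrophages (r = 0.974), Cd300ld (0.970) and P2ry13 (0.967). Prdx3 was closest to Idh2, the mitochondrial NADP-dependent isocitrate dehydrogenase (0.965), 1500011K16Rik (0.950) and Timmdc1, an assembly factor of respiratory complex I (0.950). Tacc1 was closest to Coro2b (0.972) and Tor3a to Dynlt1f (0.953). The leading genes were Zc3h14 for Tuft1 (0.888), Iqgap2 for Pctp (0.854), Nono for Ints10 (0.834) and A930012O16Rik for Gm6166 (0.793). Without the HEP libraries, 1 of the 3 closest genes was shared for Tacc1 and 0 for each of the other 7 members.

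Genes that work with the members did not pass the threshold in HEP, where 0 genes passed in any list. Among 18 tested genes of phosphatidylcholine metabolism and START domain proteins, not counting Pctp, the median log2 fold change in HEP was 0.09 beside -0.02 over all genes tested, with 10 of 18 above 0. The lowest was Abcb4, the canalicular phosphatidylcholine transporter, at -0.88 ± 0.20 (adjusted p of 0.700 by edgeR). In EC, where 2.08% of all genes passed, 2 of 20 genes of this list passed and both fell, namely Stard10, a START domain protein that binds phosphatidylcholine (-2.81 ± 0.44, adjusted p of 0.0378 by edgeR), and Pemt, the hepatic enzyme that methylates phosphatidylethanolamine (-2.43 ± 0.36, adjusted p of 0.0333 by edgeR). HEP markers stood at 13149 and 27314 CPM in WT and at 3031 and 2163 CPM in KO in these EC libraries, and their part in this result was not tested. The number of all genes called in EC ran from 3 to 688 when each library was left out.

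Among the 15 peroxiredoxins, thioredoxins and antioxidant enzymes tested beside Prdx3, 13 had an estimate above 0 in HEP. The median of the list was 0.15, beside -0.02 over all genes tested. By edgeR, 1 of the 15 had an unadjusted p under 0.05. The share of all genes above 0 was not counted in any cell type, so counts above 0 are given as a description. The list was chosen with earlier results of these data known. The highest, Txnrd2, the mitochondrial thioredoxin reductase that serves Prdx3, stood at 0.47 ± 0.19 (adjusted p of 0.700 by edgeR). In EC, HSC and KC, 8, 7 and 6 of the 15 were above 0. The other 16 subunits of the Integrator list had a median of -0.04 in HEP, with 8 above 0, and the lowest was Ints8 at -1.26 ± 0.50. The 6 torsins and cofactors had a median of -0.02 in HEP, with 3 above 0. In EC all 6 had estimates above 0, as Tor3a did, and none passed the threshold. Their median in EC was 0.38, beside -0.01 over all genes tested. In HSC 3 of the 6 were above 0 (median of -0.04). In KC, where the Tor3a estimate was also above 0, 1 of the 6 was above 0 and 5 were below (median of -0.15). Spindle partners of Tacc1 had a median of 0.12 in HEP over 5 genes, with Tacc3 at 3.22 ± 1.04 and Aurka at 2.16 ± 0.73 (adjusted p of 0.700 by edgeR for both), and genes of common beta chain signalling a median of -0.08 over 8 genes.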

How the data were processed

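Members and gene lists were chosen with earlier results of these data known. RNA was sequenced from 16 libraries in 8 groups. The authors deposited raw read counts per Ensembl gene, 1 table per library; per the submitters' processing notes, Trimmomatic 0.32, HISAT2 2.1.0, HTSeq 0.9.1, edgeR and GRCm38 were used. The labels name TruSeq stranded mRNA for library preparation and the design text Smart-seq2, and the strand setting is not given in the sources used here. The 5 summary rows of HTSeq were left out, and up to 47.9% of reads were not counted because they aligned to several places.

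CPM used totals on gene rows. In each cell type, labels were compared by edgeR 4.0.16 under R 4.3.3 (filterByExpr, TMM, quasi-likelihood test, Benjamini-Hochberg adjusted p under 0.05), and cell types in a fit of 16 libraries with a mean per group, which treats libraries as independent although cell types may share a liver. That fit was planned on the ground that averaging over labels removes the difference that chose the members. It does not in HEP, so members' contrasts with HEP are given without a test. Both were also run on simulated counts, with no outcome given here. Those counts were drawn around a mean per gene shared by all libraries, without the cell type differences of these data. They therefore do not show how the fit of 16 libraries handles such differences. Overlap was counted on TMM-scaled CPM. Correlations used a prior count of 2. DESeq2 1.42.0, RLE factors, library totals, other filters, 1 fit for all libraries, WT libraries only and leaving out each library were alternatives. Named genes are the members, Zeb2, Fabp5, Csf2rb2, the listed genes and the 3 genes most correlated with each member; Mup16, Hsph1, Ehhadh and Mrpl48-ps were named after their values were seen. Sequences and coordinates came from GENCODE M21 on GRCm38, which held 99.1% of the identifiers, with Biopython 1.88. Plots used matplotlib 3.10.9.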

Additional observations from a re-analysis of the deposited data

Results flagged for a closer look

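Estimates for Tor3a differed in sign between cell types. Each HEP library labelled KO stood below both WT libraries (log2 fold change -1.92), whereas each KO library stood above both WT libraries in EC (0.60) and in KC (0.18). The difference between cell types was not tested, because the HEP contrast chose the gene, and neither EC (adjusted p of 0.295 by edgeR) nor KC (0.972) passed the threshold on its own. Labels did not overlap for 48.5% of all genes tested in EC and 37.3% in KC. In KC the margin was narrow, at 151 CPM for the higher WT library and 153 CPM for the lower KO library.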

How the results depend on the processing

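Groups held 2 libraries each, and a fit without a library takes the lone sample to vary like the rest. No member was called between labels in EC, HSC or KC under another setting, except Gm6166 in EC without the filter on low counts (adjusted p of 0.000305 by edgeR) or without WT library 38 (0.00606), and Tuft1 in EC without WT library 34 (0.0367). Without the filter on low counts, p could fall with little change in the estimate. For Csf2rb in EC against KC, the estimate was -5.46 with the filter and -5.48 without it. Its adjusted p by edgeR was 0.000103 with the filter and 1.75e-62 without it. Calls made without that filter are therefore to be read with caution. No paired analysis was made, because the labels do not say which libraries share a liver. Counts were few for Gm6166 in HSC, at 0 to 8. Those of Tuft1 in KC were uneven, at 1 to 106, although the KC libraries held 14775530 to 15326003 reads on genes. The causes of the changes given here were not tested.

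Genes called between labels in EC numbered 305, and 983 by DESeq2, 190 with library totals, 1259 without a filter and 489 with at least 10 counts in every library. They numbered 688 without WT library 34, 58 without KO library 6 and 3 without KO library 46, so that leaving out a library gave 3 to 688. In HSC, the count of 0 became 408 by DESeq2, 663 without a filter and 178 in 1 fit of all libraries. In KC it became 72 by DESeq2, 159 without a filter and 0 to 12 without a library (12 without KO library 43). In HEP it became 32 by DESeq2, 227 without a filter and 0 to 55 without a library (55 without KO library 25). In WT libraries alone, cell type comparisons called 1630 genes for EC against HSC, 2762 for EC against KC, 3391 for HSC against KC and 6683 for HSC against HEP.

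Between labels, log2 fold changes turned sign for Prdx3 in HSC (0.0074) and KC (0.023) with library totals, and for Tuft1 (0.050) and Prdx3 (0.0027) in KC in 1 fit of all libraries. Without a library in turn, they ranged in EC from -0.31 to 1.04 for Ints10, -0.82 to 0.54 for Pctp, -0.67 to 1.04 for Prdx3, -0.082 to 0.23 for Tacc1 and -0.29 to 9.14 for Tuft1. In HSC they ranged from -3.43 to 0.98 for Csf2rb, -0.28 to 0.033 for Ints10, -0.47 to 0.64 for Prdx3, -0.15 to 0.27 for Tacc1, -0.38 to 0.41 for Tor3a and -0.14 to 1.25 for Tuft1. In KC they ranged from -0.31 to 0.46 for Ints10, -0.18 to 0.17 for Prdx3, -0.44 to 0.27 for Tacc1 and -5.48 to 3.48 for Tuft1.

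Between cell types, library totals turned the sign for Tuft1 (0.15) and Ints10 (0.093) in EC against KC, Ints10 (1.33) and Csf2rb (0.91) in EC against HEP, and Pctp in KC against HEP (0.51). Ints10 in EC against HEP also turned without a filter (0.20). In WT libraries alone, the sign turned for Ints10 (-0.12), Csf2rb (-0.36) and Gm6166 (3.49) in HSC against HEP and for Ints10 in KC against HEP (-0.67). Without a library in turn, Gm6166 ranged from -0.080 to 4.25 in EC against HEP, -1.31 to 5.25 in EC against KC, -3.66 to 0.84 in HSC against KC and -1.4996 to 1.72 in KC against HEP. Ints10 ranged from -0.27 to 0.45 in EC against HEP and -0.71 to 0.016 in EC against KC. Csf2rb ranged from -1.52 to 0.42 in EC against HSC and -0.67 to 1.27 in HSC against HEP, Tuft1 from -4.17 to 2.62 in EC against KC, and Prdx3 from -0.52 to 0.029 in HSC against KC.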
